A study of Mus musculus with 6 samples.

Results

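The 8 genes described here encode the inhibitors of cyclin-dependent kinases (CDKs): Cdkn1a, Cdkn1b, Cdkn1c, Cdkn2a, Cdkn2b, Cdkn2c, Cdkn2d and Cdkn3. They were chosen by symbol, with earlier results of these data known. Every probe set that the array's annotation gives to 1 of them alone was taken separately. This made 10 probe sets of 45037, or 8 genes of 18193. Cdkn1a and Cdkn1b had 2 probe sets and the other 6 genes 1 each. The RNA came from Ba/F3, a mouse pro-B cell line that needs interleukin-3, after retroviral transfer of a SPAG9-JAK2 fusion gene under a doxycycline-dependent promoter (Retro-X Tet-On Advanced). JAK2 is a tyrosine kinase of cytokine receptors and SPAG9 a scaffold protein. After washing, 3 cultures received 500 ng/ml doxycycline (induced) and 3 received none (uninduced), and RNA of each was put on 1 array after 48 hours. Both groups carry the transduced construct. No array held doxycycline-treated cells without the fusion, and neither the use of a single clone nor the presence of interleukin-3 in the medium is given in the sources used here.

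CDK inhibitors hold the cell cycle in G1 or slow it later. The INK4 proteins (from Cdkn2a, Cdkn2b, Cdkn2c and Cdkn2d) bind CDK4 and CDK6 and keep them from D-type cyclins, so that the retinoblastoma protein stays active. The CIP/KIP proteins (from Cdkn1a, Cdkn1b and Cdkn1c) bind cyclin-CDK2 complexes. Cdkn2a also encodes ARF, made from another first exon in another reading frame, which restrains the p53 ubiquitin ligase MDM2. Cdkn2a and Cdkn2b lie side by side in the locus that Polycomb complexes silence in dividing blood progenitors and that lymphoid leukaemias often delete. Cdkn3 encodes KAP, a phosphatase that acts on CDK2.

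The promoters of the 3 genes whose induced arrays all lay below the uninduced arrays are shown first. Of all probe sets 11.2% had their groups apart in that direction. RefSeq's table for GRCm38.p6 gave 250 bases before a transcript start for 7 of the 8 genes, in 10 windows. Cdkn2a has 2 such starts. The outer start, nearer to Cdkn2b, is known for ARF and the inner start for INK4A. Capitals mark matches, on either strand, to motifs that were chosen after the letters were seen.
Cdkn2a, outer start, chr4:89294620-89294869, minus strand: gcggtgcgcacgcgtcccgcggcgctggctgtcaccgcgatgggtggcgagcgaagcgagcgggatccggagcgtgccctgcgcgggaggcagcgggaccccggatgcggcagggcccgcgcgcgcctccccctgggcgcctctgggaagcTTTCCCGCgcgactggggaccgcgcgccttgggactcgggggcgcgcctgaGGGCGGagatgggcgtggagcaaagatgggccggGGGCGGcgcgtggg
Cdkn2a, inner start, chr4:89282193-89282442, minus strand: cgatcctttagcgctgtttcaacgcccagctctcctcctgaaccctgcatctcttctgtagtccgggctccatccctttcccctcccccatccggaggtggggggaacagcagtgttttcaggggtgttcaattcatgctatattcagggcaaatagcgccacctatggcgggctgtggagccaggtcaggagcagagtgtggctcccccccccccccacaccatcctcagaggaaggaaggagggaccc
Cdkn2b, chr4:89311033-89311282, minus strand: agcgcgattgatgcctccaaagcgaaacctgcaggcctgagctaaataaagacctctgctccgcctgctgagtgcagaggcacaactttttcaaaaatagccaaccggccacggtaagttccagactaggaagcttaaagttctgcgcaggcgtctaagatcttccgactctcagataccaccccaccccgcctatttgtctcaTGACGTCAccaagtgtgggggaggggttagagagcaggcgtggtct
Cdkn1a, upstream start, chr17:29090729-29090978, plus strand: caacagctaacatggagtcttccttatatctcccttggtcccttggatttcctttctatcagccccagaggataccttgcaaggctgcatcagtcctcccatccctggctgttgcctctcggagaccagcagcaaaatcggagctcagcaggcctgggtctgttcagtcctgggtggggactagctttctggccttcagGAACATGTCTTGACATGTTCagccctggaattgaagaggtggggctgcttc
Cdkn1a, downstream start, chr17:29093519-29093768, plus strand: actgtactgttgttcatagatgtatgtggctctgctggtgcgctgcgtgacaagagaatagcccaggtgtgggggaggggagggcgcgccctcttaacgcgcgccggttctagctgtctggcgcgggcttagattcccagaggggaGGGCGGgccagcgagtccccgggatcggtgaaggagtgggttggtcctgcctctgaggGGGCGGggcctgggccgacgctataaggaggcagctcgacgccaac

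The outer Cdkn2a window held 40 CpG dinucleotides, the inner one 7 and the Cdkn2b window 12, against a median of 6 over 32841 windows. An E2F-type motif (TTTCCCGC, TTTCGCGC, TTTGGCGC or TTTGCCGC) stood in the outer Cdkn2a window and in 1.86% of all windows. The cyclic AMP response element TGACGTCA stood in the Cdkn2b window and in 1.55% of all. GC boxes (GGGCGG) stood in the outer Cdkn2a window and the downstream Cdkn1a window, with 2 in each. A GC box stood in 6 of the 10 windows, those of Cdkn1b, Cdkn2c, Cdkn2d and Cdkn3 among them, and in 32.7% of all windows. The upstream Cdkn1a window held a p53 response element with at most 1 letter outside the consensus, as did 0.0579% of all windows. Neither the STAT motif TTCNNNGAA, which 7.02% of all windows held, nor the FOXO motif GTAAACA, which 3.17% held, had a match in any of the 10 windows.

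Each array gave a signal intensity on a linear scale, and median signals over the non-control probe sets were 46.2 to 63.6. The log2 fold change is the mean of log2(signal + 16) on induced arrays minus that on uninduced arrays, a scale that shrinks changes of dim genes. It was tested with limma and adjusted by the Benjamini-Hochberg method. With 1 probe set per gene 34 of 18193 genes passed an adjusted p of 0.05, 0.187% of all, 21 higher and 13 lower (24 and 6 with each array centred on its median). Uninduced replicate 1 stood apart from the other uninduced arrays: its highest correlation with any array was 0.965, against 0.978 for the other uninduced arrays, and without it 1453 genes, or 7.99%, passed. Induced replicate 1 stood apart from its group too, with a highest correlation of 0.969 against 0.977 for the other induced arrays. In limma 12 passed without induced replicate 1, 1 without induced replicate 3, and 0 without induced replicate 2, uninduced replicate 2 or uninduced replicate 3 (2224, 2093 and 2006 at an unadjusted p under 0.05). The receptor genes for interleukin-3 were all above background, taken as the 90th percentile of liver and brain genes (5.95 on the log2 scale), but only 3 of 10 measured pro-B markers were (Cd79b, Igll1 and Pax5), and Ebf1, Vpreb1 and Rag1 were not. The summed signal of 9 granulocyte and monocyte markers was 650 to 1288 on induced and 1337 to 3333 on uninduced arrays, and that of 5 erythroid markers 6541 to 8618 and 4318 to 4824. Of these lists 7 and 3 genes were above background. For 6 mast cell and basophil markers the sums were 5168 to 8029.6 and 7394 to 11716, with 2 above background, and for 4 T cell markers 153 to 684 and 77.9 to 314, with 2 above background. The sums of the mast cell, T cell and pro-B markers overlapped between the groups. For the pro-B markers they were 480 to 727 on induced and 587 to 736 on uninduced arrays. Those of the 17 measured liver and brain genes did not overlap, at 1080 to 1336 on induced and 1495 to 1654 on uninduced arrays. The part of these shifts in the results below was not tested, and fewer cells of a type cannot be told apart from less RNA per cell. The probe sets for mouse Jak2 and Spag9 were not higher in induced cells (-0.55 ± 0.41 and -0.92 ± 0.33, log2 fold change ± SE, adjusted p in limma of 0.542 and 0.234). Whether they read the fusion transcript was not analysed here.

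Among the 8 genes, Cdkn2a alone passed the test in limma with 1 probe set per gene, and it was lower in induced cells. The adjusted p of Cdkn2a was 0.0396 there and 0.0639 among all probe sets, where it did not pass. That of Cdkn2b was 0.0538 with 1 probe set per gene. There 7 of 16 alternative settings, some of them added after seeing the data, kept Cdkn2a past the threshold. By mean signal Cdkn2a stood 5.17-fold lower, its neighbour Cdkn2b stood 2.65-fold lower, and Cdkn1a stood 1.88-fold and 1.58-fold lower by its 2 probe sets. Cdkn1b, Cdkn2c, Cdkn2d and Cdkn3 differed by less than 1.5-fold, and Cdkn1c was at background. The 8 genes had a median log2 fold change of -0.35, against -0.06 over all genes, and 7 of 8 were negative, against 55.9% of all genes. So 1 of 8 genes was called, against 0.0715% of all genes in that direction. On 4 of 10 probe sets every induced array lay below every uninduced array, against 11.2% of all probe sets. The 8 genes were chosen with earlier results of these data known, so these shares give no independent support to a shift of the group.

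**Figure D1:**
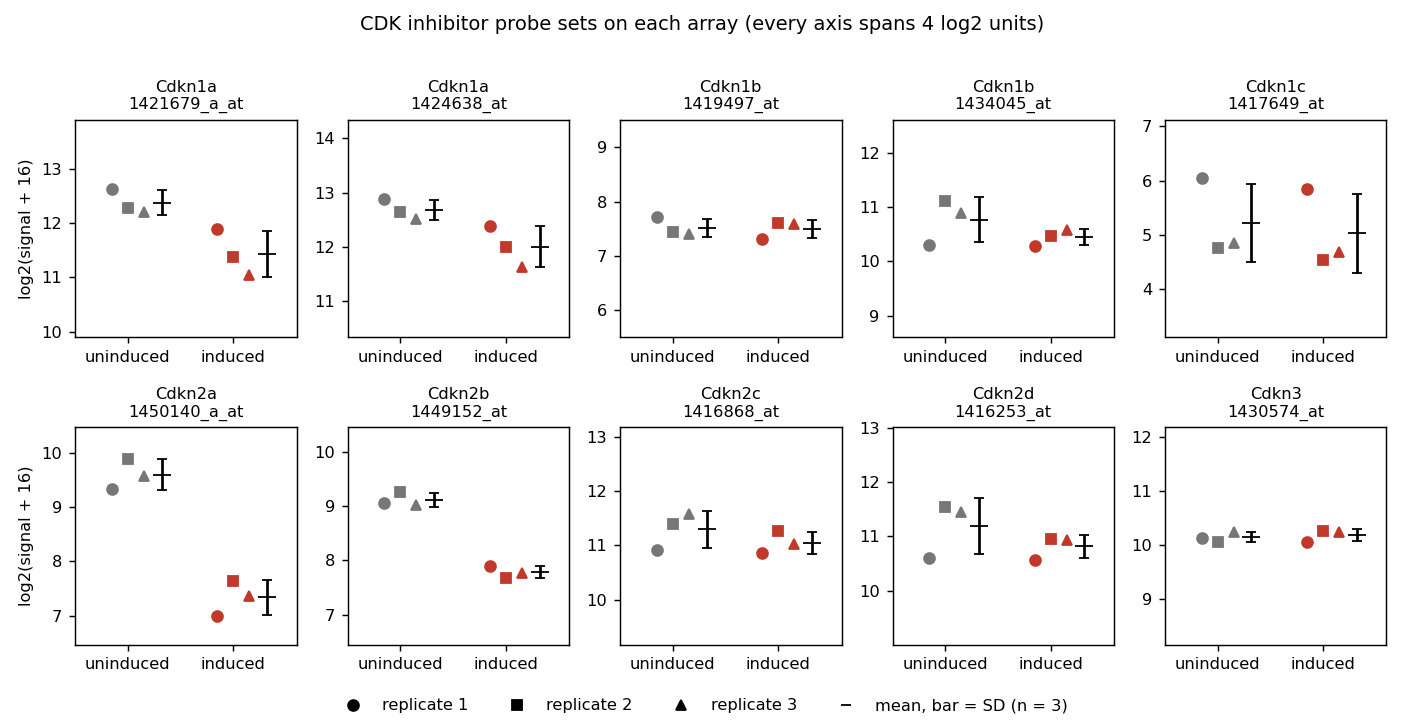
Level of each CDK inhibitor probe set, as log2(signal + 16), on the 3 uninduced arrays (grey) and the 3 induced arrays (red), with the marker giving the replicate number and the black bar the mean and SD of each group. The induced arrays lie below all uninduced arrays for Cdkn1a (both probe sets), Cdkn2a and Cdkn2b, and the groups overlap for the other 6 probe sets.

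Cdkn2a was read by probe set 1450140_a_at. Its signal was 625, 936 and 746 on uninduced replicates 1, 2 and 3, and 112, 185 and 149.5 on induced replicates 1, 2 and 3. The groups did not overlap and lay far apart, and uninduced replicate 1, which stood apart over all genes, was the lowest of its group here. Group means were 769 ± 156 and 149 ± 36.1 (SD, n = 3), and the log2 fold change was -2.26 (95% interval of -2.84 to -1.68). Among all 45037 probe sets 73 had a more negative log2 fold change. The difference between induced and uninduced arrays was -2.32, -2.25 and -2.20 in the arrays numbered 1, 2 and 3. The labels do not say that equal numbers mark pairs. Which of the Cdkn2a transcripts, that for INK4A or that for ARF, the probe set reads was not analysed here.

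The call of Cdkn2a depended on the setting. Over 16 alternative settings the log2 fold change lay between -2.41 and -1.97. Blocking by replicate, the level filter, other variance settings and averaging of probe sets could not move it in this design. The limma adjusted p of Cdkn2a was 0.0396 with 1 probe set per gene and 0.0639 among all probe sets, where 17 of 45037, or 0.0377%, passed. In that fit 0 of the 10 CDK inhibitor probe sets passed in limma, and 4 had an unadjusted p under 0.05, against 14.1% of all probe sets. With 1 probe set per gene the adjusted p of Cdkn2a ranged from 0.00325 to 0.233 over the 16 settings, and 7 of them kept it past the threshold. Among those 7 were the fits without both replicate 1 arrays (0.0357) and with replicate 1 as a batch (0.0455). Both of these were added after seeing the data. In limma the adjusted p of Cdkn2a was 0.0833 with each array centred on its median and 0.0532 with quantile normalization. It was 0.0965 with a pseudocount of 1 and 0.198 with the replicate number as a block. Leaving out 1 array gave an adjusted p in limma of 0.096, 0.175 and 0.195 (induced replicates 1, 2 and 3), 0.0169 (uninduced replicate 1), and 0.182 and 0.233 (uninduced replicates 2 and 3).

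Cdkn2b, which encodes INK4B, a CDK4 and CDK6 inhibitor known to be induced by TGF-beta, was read by probe set 1449152_at. Its signal was 519, 599 and 504 on uninduced replicates 1, 2 and 3, and 223, 188 and 201 on the induced ones. The arrays within each group were close together and the groups were far apart: the SD was 51.2 around a mean of 541 without induction and 17.4 around 204 with it (n = 3 each). The log2 fold change was -1.34 ± 0.16 (SE, 95% interval of -1.72 to -0.95), with an adjusted p in limma of 0.0538 with 1 probe set per gene and 0.0937 among all probe sets. Neither passes the threshold. Over 16 alternatives the log2 fold change lay between -1.43 and -1.17, and the adjusted p in limma between 0.00933 and 0.276, with 6 past the threshold. Among those 6 was the fit without both replicate 1 arrays (0.0389), added after seeing the data. Without uninduced replicate 1 the adjusted p of Cdkn2b in limma was 0.021. Then 2 of 8 genes passed, Cdkn2a and Cdkn2b, against 7.99% of all genes, and 2 of 10 probe sets, against 3.05% of all probe sets. In the arrays numbered 1, 2 and 3 the difference was -1.16, -1.59 and -1.26.

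**Figure D2:**
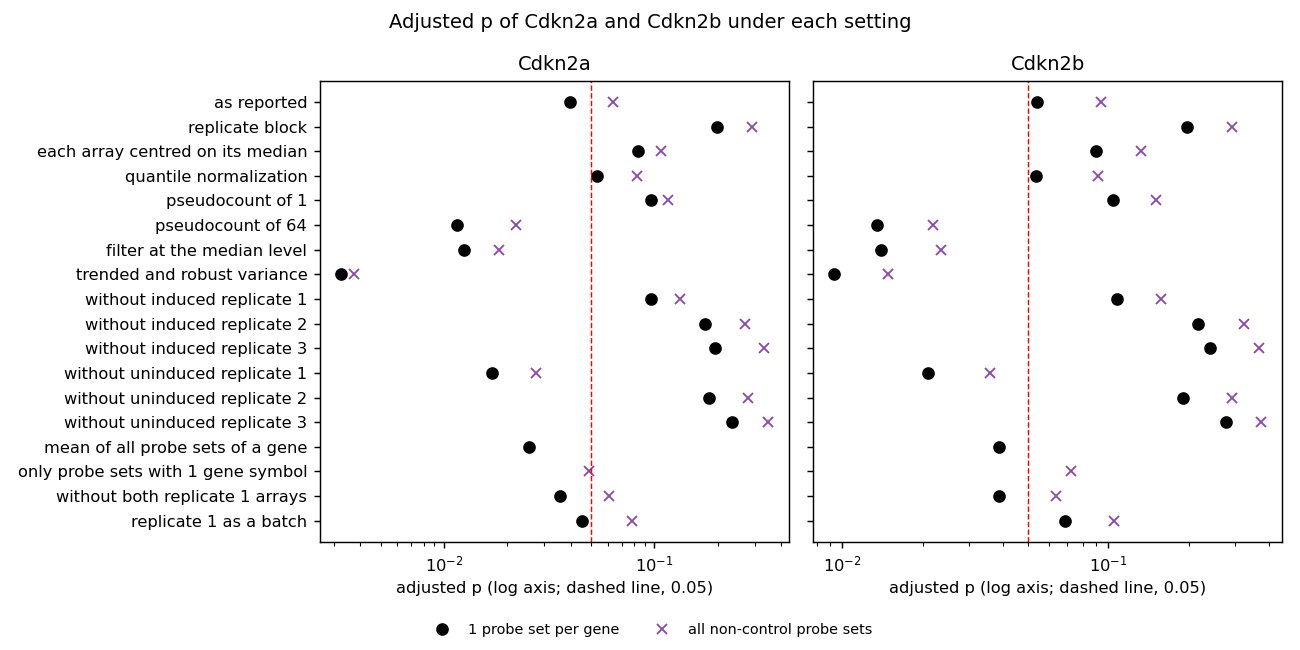
Adjusted p from limma (log axis) for Cdkn2a (left) and Cdkn2b (right) under the reported setting and each alternative, with 1 probe set per gene (black circles, 18193 genes) or with all non-control probe sets (purple crosses). Points fall on either side of the dashed line at 0.05, and both genes lie to the right of it when any array other than uninduced replicate 1 is left out.

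Neither gene beside the Cdkn2a and Cdkn2b pair on mouse chromosome 4 passed the test. Mtap, which encodes the methylthioadenosine phosphorylase of methionine salvage and is the nearest measured gene beyond Cdkn2a, stood at 12.08 on induced and 12.32 on uninduced arrays (log2 level), a difference of -0.24 ± 0.28 (SE) with an adjusted p of 0.705 in limma. Dmrta1, the nearest beyond Cdkn2b, was at 4.83 and 4.88, which is under the background level. Around all 8 genes there were 14 neighbouring measured genes that are no CDK inhibitors, and 7 of them were above background in either group. In the others a decrease could hardly be seen. In limma 0 of the 14 passed, against 0.187% of all genes. At an unadjusted p under 0.05 there was 1, against 17.4% of all genes. That gene was Rab44, beside Cdkn1a on chromosome 17, at -1.27 ± 0.32 (SE, adjusted p of 0.149 in limma).

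The other INK4 genes had smaller differences, and their groups overlapped. Cdkn2c, which encodes INK4C, had signals of 1925, 2682 and 3051 on uninduced replicates 1, 2 and 3, and 1839, 2436 and 2067 on the induced ones. Uninduced replicate 1 was as low as the induced arrays. Its log2 fold change was -0.25 with a 95% interval of -0.80 to 0.30 (adjusted p of 0.606 in limma). Cdkn2d, which encodes INK4D, had signals of 1539.5, 2953 and 2798 without induction and 1505, 1961 and 1943 with it. Here too uninduced replicate 1 lay among the induced arrays, and uninduced replicates 2 and 3 lay above all of them. The log2 fold change was -0.38 (95% interval of -1.08 to 0.32, adjusted p of 0.543 in limma). It was -0.03 in the arrays numbered 1, and -0.59 and -0.52 in those numbered 2 and 3. Without uninduced replicate 1 it was -0.68, with an adjusted p of 0.0847 in limma, and the adjusted p ranged from 0.0696 to 0.814 over 16 alternatives. None of the alternatives brought Cdkn2c or Cdkn2d past the threshold.

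In the CIP/KIP family, Cdkn1a encodes CIP1, the inhibitor that p53 is known to induce in response to DNA damage. By probe set 1424638_at its signal was 7583, 6371 and 5867 on uninduced replicates 1, 2 and 3, and 5342, 4062 and 3149.9 on the induced ones. By probe set 1421679_a_at it was 6334, 4919 and 4704 without induction and 3763, 2635 and 2092 with it. Both probe sets kept the groups apart, and both ordered the arrays alike, with replicate 1 highest in each group. The log2 fold changes were -0.68 ± 0.25 and -0.94 ± 0.27 (SE), with adjusted p in limma of 0.305 and 0.232 among all probe sets, and 0.228 for the former with 1 probe set per gene. The 95% intervals, not adjusted for the number of probe sets, ran from -1.27 to -0.09 and from -1.58 to -0.29. Over the alternatives the values stayed negative, from -0.87 to -0.49 and from -1.16 to -0.74, and none passed the threshold.

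The probe sets of Cdkn1b, which encodes KIP1, the inhibitor that cells lose as they leave quiescence, differed from each other. Probe set 1434045_at, the brighter, gave 1250.4, 2204 and 1873 on uninduced replicates 1, 2 and 3, and 1229, 1407 and 1518 on the induced ones. Probe set 1419497_at gave 193, 159 and 153 without induction and 143, 178 and 176 with it. On the former uninduced replicate 1 was the lowest of its group and on the latter it was the highest of all arrays. The log2 fold changes were -0.32 ± 0.25 and -0.022 ± 0.19 (SE), with adjusted p in limma of 0.624 and 0.973 among all probe sets. The sign of the latter turned with each array centred on its median (0.045), with quantile normalization (0.047) without uninduced replicate 1 (0.073), without induced replicate 1 (0.072) and without both (0.17).

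Cdkn1c, which encodes KIP2 and is imprinted, was at background in both groups. Its signals were 49.8, 11.0 and 12.8 on uninduced replicates 1, 2 and 3, and 41.7, 7.15 and 9.82 on the induced ones, with both replicate 1 arrays the highest. Mean log2 levels of 5.21 and 5.02 were under the background level of 5.95, and it was the 1 probe set of the 10 under the median level of all probe sets (5.94). Its log2 fold change of -0.19 had a 95% interval of -1.35 to 0.98, and the sign turned without uninduced replicate 1 (0.22) or induced replicate 2 (0.057). No direction can be given for it. Cdkn3, the phosphatase gene, had signals of 1105, 1055 and 1196 without induction and 1056, 1216 and 1198 with it. The 6 arrays lay within a narrow range and the groups overlapped. The log2 fold change of 0.047 had a 95% interval of -0.32 to 0.42 (adjusted p of 0.912 in limma), which leaves out a change as large as that of Cdkn2b.

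**Figure D3:**
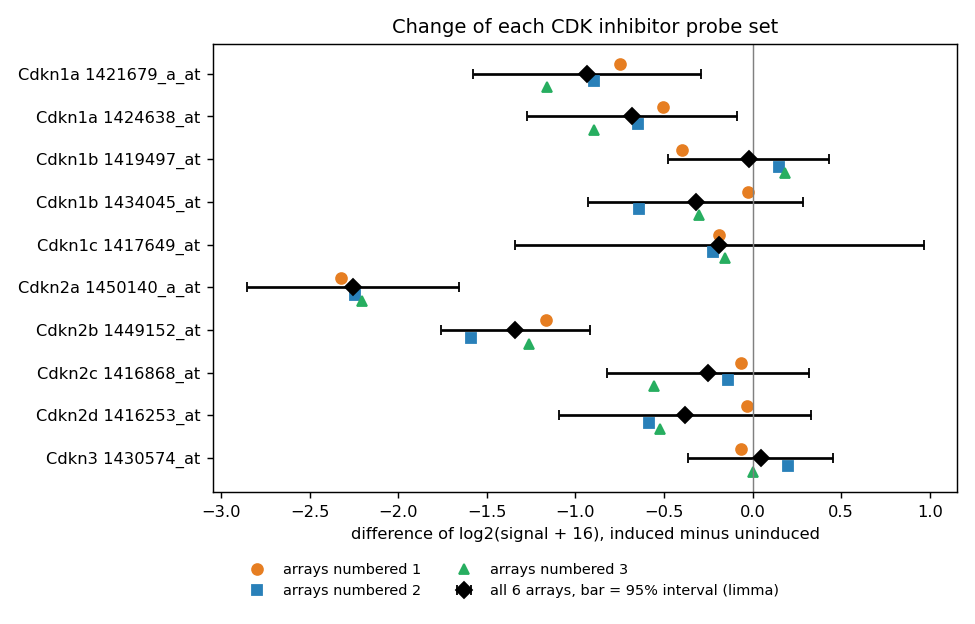
Induced minus uninduced log2(signal + 16) for each CDK inhibitor probe set, with all 6 arrays (black diamonds, bars for the 95% interval from limma among all probe sets) and within the arrays numbered 1, 2 and 3. Cdkn2a lies at -2.26 and Cdkn2b at -1.34, while the points numbered 1 lie near 0 for Cdkn2c, Cdkn2d and Cdkn1b probe set 1434045_at.

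None of the kinase and cyclin genes that these inhibitors act on passed the test. By the probe sets that stand for them, the 5 genes of the CDK4 and CDK6 complexes had small positive log2 fold changes: Cdk4 0.31 ± 0.20, Ccnd1 0.27 ± 0.23, Cdk6 0.16 ± 0.20, Ccnd2 0.045 ± 0.29 and Ccnd3 0.034 ± 0.27 (SE). Other probe sets gave 0.32 to 0.40 for Cdk4, -0.20 to 0.11 for Ccnd1, 0.16 to 0.96 for Cdk6, -0.18 to 0.88 for Ccnd2 and -0.32 to 0.12 for Ccnd3. Without uninduced replicate 1, 2 of the 5 were negative. Of 9 measured genes of CDK1 and CDK2 with their cyclins and activating phosphatases 8 were positive, with a median of 0.35. The other 1 was negative, where 55.9% of all genes were. The smallest p-values there were those of the phosphatase gene Cdc25a (0.86 ± 0.17, adjusted p of 0.109 in limma), Cdk1 (0.43 ± 0.15, adjusted p of 0.228) and Ccne1, which encodes cyclin E1 (0.65 ± 0.25, adjusted p of 0.26). All 3 probe sets of Cdc25a were positive, from 0.69 to 0.89, with the lowest value from a probe set at background.

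The pocket protein and E2F genes, downstream of those kinases, had 6 negative and 7 positive members of 13 and a median of 0.0058. Of all genes 55.9% were negative. The retinoblastoma gene Rb1 stood at -1.41 ± 0.29 (adjusted p of 0.116 in limma), and its other probe set, at background, gave 0.17. Tfdp2, an E2F partner, stood at -0.78 ± 0.22 (adjusted p of 0.173 in limma), although its 3 other probe sets gave -0.039 to 0.0019. Rbl2, the pocket protein of resting cells, stood at -0.77 ± 0.27 (adjusted p of 0.23 in limma). On the ARF side, Mdm2 stood at -0.85 ± 0.14 (adjusted p of 0.0897 in limma), with -0.26 by another probe set at nearly the same level. Mdm4, a relative of Mdm2 that also binds p53, stood at -0.54 ± 0.16, although its 3 other probe sets gave -0.26 to -0.054. Huwe1, a ubiquitin ligase that ARF binds, stood at 0.15 ± 0.23, with -0.44 to 0.24 by its other probe sets, and Npm1, the nucleolar partner of ARF, stood at 0.036 ± 0.16. Trp53 was not analysed here.

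**Figure D4:**
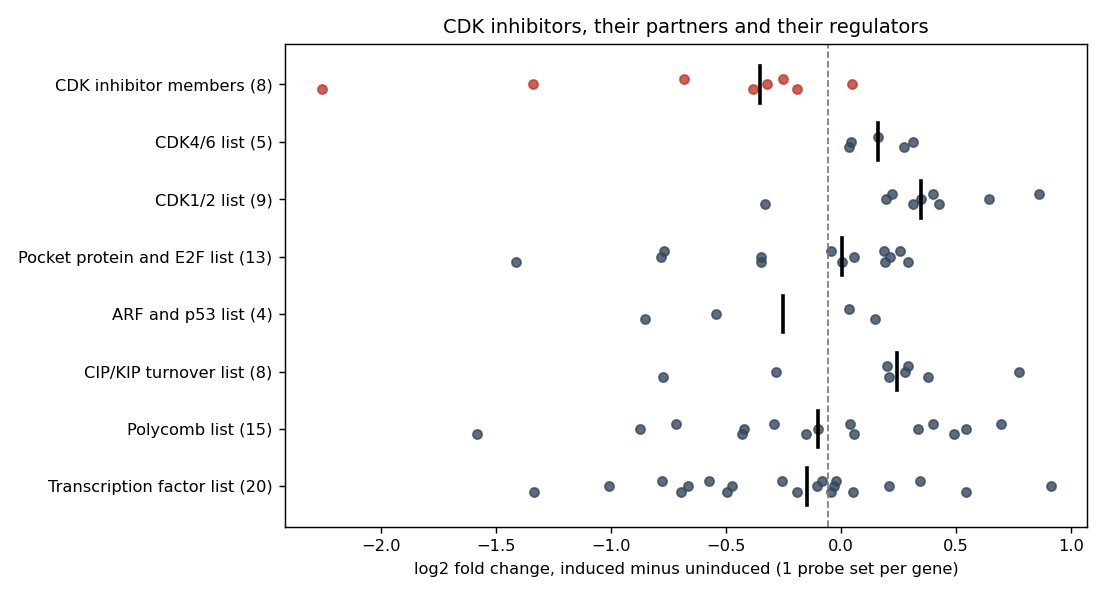
Log2 fold change (induced minus uninduced, 1 probe set per gene) of the 8 CDK inhibitor genes (red) and of 7 lists of their partners and regulators (blue), with the number of measured genes in parentheses, each list's median as a black bar and the median of all genes as a dashed line. Medians lie between -0.35 for the CDK inhibitors and 0.35 for the CDK1 and CDK2 list, and single genes of the lists spread from -1.58 to 0.91.

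Among genes that control the inhibitors' proteins, Skp2, the F-box protein that marks KIP1 for degradation, stood at 0.77 ± 0.16 (SE, adjusted p of 0.116 in limma), and its 6 probe sets were all positive, from 0.43 to 0.95. Cul4a, a cullin of the ligase that degrades CIP1, stood at -0.77 ± 0.22 (adjusted p of 0.176 in limma), and Skp1, the adaptor that holds Skp2, at 0.38 ± 0.15 (adjusted p of 0.264 in limma). That turnover list had 6 positive genes of 8 and 2 negative ones, where 55.9% of all genes were negative. The Polycomb list, which holds subunits of the Polycomb complexes and the demethylase genes Kdm2b and Kdm6b, had 8 negative and 7 positive genes of 15. Kdm6b, a demethylase that removes the Polycomb mark from histone H3 and is known to activate this locus, stood at -1.58 ± 0.20 (adjusted p of 0.0634 in limma), and its next probe set gave -1.57. Ezh2, the methyltransferase that places this mark, stood at 0.69 ± 0.18 (adjusted p of 0.153 in limma), and Ezh1, its paralogue, at -0.72 ± 0.19 (adjusted p of 0.153 in limma), with -0.13 to 0.68 by its 3 dimmer probe sets. Of 20 transcription factors known to act on CDK inhibitor genes 15 were negative, against 55.9% of all genes. With each array centred on its median 12 of the 20 were negative, against 49.2% of all genes. Foxo3, an activator of Cdkn1b, stood at -1.33 ± 0.35 (adjusted p of 0.159 in limma), whereas the repressor genes Tbx3 (-1.01 ± 0.30) and Tbx2 (0.91 ± 0.29) were at background, with mean levels of 5.08 and 4.82.

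In all, 0 of 74 measured genes of the 7 lists passed in limma, against 0.187% of all genes. At an unadjusted p under 0.05 there were 22 of 74, against 17.4% of all genes (3171 of 18193). Without uninduced replicate 1, 12 of the 74 passed, 6 in each direction, against 7.99% of all genes. When both replicate 1 arrays were left out, which was decided with the data in view, 1 was higher and 9 were lower, against 8.12% of all genes called, 524 higher and 953 lower.

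The profiles over the 6 arrays were compared next. Among 10692 genes at or above the median level, with each gene centred on its own mean, the 4 with the smallest root mean square difference of log2 values to Cdkn2a were Clec4e, a C-type lectin receptor (0.13), Bhlhe40, a transcriptional repressor (0.15), Txnip, an inhibitor of thioredoxin (0.17), and Ddit4, an inhibitor of mTORC1 (0.25). The log2 fold changes of Clec4e, Bhlhe40 and Txnip were -2.47, -2.32 and -2.26, and the mean log2 level of Ddit4 was 10.50 on induced and 12.50 on uninduced arrays. The 4 nearest to Cdkn2b were Ier5, an immediate early gene (0.065), Mxd4, which encodes a partner of MAX (0.12), Osbpl2, an oxysterol-binding protein gene (0.14), and Rcbtb2 (0.14), with log2 fold changes from -1.38 to -1.24. Cdkn2b itself ranked 79 in likeness to Cdkn2a, and Cdkn2a ranked 2121 in likeness to Cdkn2b, with a difference of 0.54. This is a description of 6 arrays in 2 groups, in which the distance between the groups carries most of each profile.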

How the data were processed

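Total RNA of 3 induced and 3 uninduced cultures was made into biotin-labelled cRNA (GeneChip 3′IVT PLUS, per the labels' protocols) and measured on Affymetrix mouse arrays. The deposited values are signal intensities on a linear scale, made with Affymetrix Expression Console 1.4.1, per the submitters' processing notes. How probes were summarised is not stated there. Each array's mean, with 2% trimmed at each end, was 500.003, so arrays had been scaled alike. No detection calls came with them. Precision is limited by the 6 arrays.

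From them log2(signal + 16) was computed, with no further normalization, and the 64 control probe sets were left out. The platform table gave 34945 probe sets 1 symbol, 932 several and 9160 none. The probe set with the highest mean stood for its gene (18193 genes), and a second fit took all 45037 probe sets. Both used limma 3.58.1 (eBayes after lmFit, with 4 residual degrees of freedom, two-sided p-values, Benjamini-Hochberg adjustment and a threshold of 0.05) in R 4.3.3. The procedure was tested on simulated data with independent noise for each gene and array. Deviations that many genes share on an array, as on uninduced replicate 1, were not simulated. A permutation test of 3 against 3 arrays cannot go below 0.10 and was not used. The labels say nothing of separate experiments, and the spread behind each p-value is that among these cultures, which may be technical. All 8 symbols matched GRCm38.p6 by Entrez number. Figures were drawn with matplotlib 3.10.9.

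The CDK inhibitor genes and the lists were chosen with earlier results of these data known. Named are all 8 genes, of each list the 3 genes with the smallest p and any past the threshold (lists of up to 6 genes in full), neighbours and the 4 nearest profiles. Alternatives were pseudocounts of 1 and 64, median centring or quantile normalization, the replicate number as a block, a filter at the median level, trended and robust variance, averaging all probe sets of a gene, only probe sets with 1 symbol, and leaving out each array. Leaving out both replicate 1 arrays and taking replicate 1 as a batch were added after seeing the data.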

Additional observations from a re-analysis of the deposited data

How the results depend on the processing

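The number of CDK inhibitor genes past the threshold was 1 as reported. It was 2 (Cdkn2a and Cdkn2b) with a pseudocount of 64, a filter at the median level, trended and robust variance, averaging of all probe sets per gene, or without both replicate 1 arrays. Of all genes 1.4%, 3.2%, 3.02%, 0.242% and 8.12% passed in these settings, in that order, against 0.187% as reported. It was 0 in limma with a replicate block, median centring, quantile normalization or a pseudocount of 1, each with 3 at an unadjusted p under 0.05. Of 18193 genes 0, 30, 28 and 0 passed there in limma, and 3269, 2876, 3114 and 2807 had an unadjusted p under 0.05. Leaving out 1 array gave 0 to 2, with 2 to 4 at an unadjusted p under 0.05 (2006 to 4807 of all 18193 genes). It was 2 only without uninduced replicate 1, against 7.99% of all genes. Of their probe sets 0 passed as reported, 2 with a pseudocount of 64, the filter or trended and robust variance, 1 with only probe sets of 1 symbol, and 0 to 2 without 1 array. Of all probe sets 0.0377%, then 0.302%, 0.759% and 1.2%, then 0.12%, and 0 to 3.05% passed, in the same order.

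Among all genes 34 passed as reported, 44 with averaging of all probe sets per gene and 255 with a pseudocount of 64. With the filter 342 of 10693 passed, 550 with trended and robust variance and 1477 without both replicate 1 arrays. In limma 0 passed with a replicate block (3269 at an unadjusted p under 0.05) or a pseudocount of 1 (2807), and 0 to 1453 without 1 array. Of all probe sets 17 passed as reported (9 higher, 8 lower), 30 with median centring (25 higher, 5 lower), 136 with a pseudocount of 64, 171 with the filter, 541 with trended and robust variance and 42 with only probe sets of 1 symbol. In limma 0 passed with a replicate block (6401 at an unadjusted p under 0.05), a pseudocount of 1 (5364), without both replicate 1 arrays (11167) or with replicate 1 as a batch (8002), and 0 to 1374 without 1 array. Of the list genes 0 passed as reported, 4 with a pseudocount of 64, 5 with the filter, 6 with trended and robust variance, 10 without both replicate 1 arrays and 0 to 12 without 1 array. The filter tested fewer features, and the other causes were not tested.

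The replicate numbers are not said to mark shared cultures. Same-numbered arrays correlated at 0.16, 0.080 and 0.056 in their deviations from the group means. Of the 6 arrays 6 correlated best with the other group's array of their own number, a hint from the data only. The fit with the replicate block was taken as an alternative and not as the main fit. It left Cdkn2a at -2.26, with an adjusted p of 0.198 in limma, against 0.00325 to 0.233 over all its alternatives.

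The direction of Cdkn2a, Cdkn2b, Cdkn1a, Cdkn2c, Cdkn2d, Cdkn3 and Cdkn1b probe set 1434045_at was kept in every alternative. Settings that change only the block, the variance or the filter could not have turned a direction. The value of Cdkn1b probe set 1419497_at (-0.022) turned with median centring (0.045), quantile normalization (0.047) and without both replicate 1 arrays (0.17), and ranged from -0.082 to 0.073 without 1 array. That of Cdkn1c (-0.19) ranged from -0.60 to 0.22 without 1 array, at a level where signal cannot be told from background.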
